A study of Mus musculus with 12 samples.

Results

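The 10 genes listed here belong to the smooth muscle type contractile apparatus and were examined in a mouse line of skeletal myoblasts, C2C12: Acta2, Tagln, Cnn1, Cnn2, Myl9, Myh11, Smtn, Cald1, Lmod1 and Tpm1. They were taken by gene name from the deposited count table, which held all 10 among 54532 genes. Of these, 8 passed the filter on low counts, as did 16038 genes in all, and Tagln and Myh11 did not. The cells, labelled as myoblasts, had been grown to confluence and kept for 24 h with perfluorooctanesulfonate (PFOS, a perfluorinated surfactant) at 0, 2 or 6 µM, with 4 libraries at each dose and 12 in all. The vehicle given at 0 µM was not stated in the labels, nor whether libraries of the same dose were grown as separate cultures. The p-values cover the spread between these libraries alone, and that spread may be technical. The set was chosen by its fold changes between doses in these same libraries, since it was drawn up with those values known. Levels and differences of the 10 genes are therefore given as a description, and nothing is read from how many of them were called.

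Smooth muscle contracts by the sliding of actin and myosin filaments, as striated muscle does, but it has no sarcomeres and is switched on by phosphorylation of the myosin regulatory light chain rather than through troponin. Many of its contractile genes are also made in fibroblasts and in undifferentiated skeletal myoblasts, where they serve stress fibres. Their transcription is known to depend on serum response factor (SRF), which binds a promoter element called the CArG box, and on the SRF cofactors myocardin and the myocardin-related factors, which respond to the pool of unpolymerised actin.

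The promoter sequences that bear on the SRF element are shown first. A link between this element and the dose differences was not tested. RefSeq sequence on build GRCm38.p6, from 250 bases before to 50 bases after an annotated start, was found for 8 of the 10 genes in 9 windows, and Tagln and Myh11 were not among them. A CArG box, searched by its exact consensus on both strands, was present in 535 of all 32851 windows (1.63%) and, among the 10 genes, in those of Myl9 and Cnn2. In the Myl9 sequence at chr2:156775214-156775419 (plus strand) it lay 161 to 152 bases before the start, and in the Cnn2 sequence at chr10:79988350-79988583 (plus strand) 56 to 47 bases before it. The Smtn sequence at chr11:3539324-3539542 (minus strand) is printed beside them because Smtn was the gene of the set called higher at 6 against 0 µM. Its window held no exact match, and neither did those of Acta2, Cald1, Cnn1, Lmod1 and Tpm1. The Smtn window belongs to a start inside the gene, whose 5′ end in the count table is at 3540612. Acta2 had no exact match, but it had matches with 1 base changed at 84 to 75 and at 34 to 25 bases before the start, shown within chr19:34255438-34255467 and chr19:34255388-34255417 (minus strand). These distances are from the RefSeq start, and the count table places the Acta2 end on that side at 34255336, farther from both matches. In GENCODE M21, 217 of the 250 bases before the RefSeq start lie in exons, both Acta2 stretches among them. Each sequence runs 5′ to 3′, and capitals mark the CArG box or, in Acta2, the match with 1 base changed.
Myl9: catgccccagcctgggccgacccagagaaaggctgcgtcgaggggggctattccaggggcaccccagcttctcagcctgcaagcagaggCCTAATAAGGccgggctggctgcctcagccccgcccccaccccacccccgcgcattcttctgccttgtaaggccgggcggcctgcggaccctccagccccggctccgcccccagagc
Cnn2: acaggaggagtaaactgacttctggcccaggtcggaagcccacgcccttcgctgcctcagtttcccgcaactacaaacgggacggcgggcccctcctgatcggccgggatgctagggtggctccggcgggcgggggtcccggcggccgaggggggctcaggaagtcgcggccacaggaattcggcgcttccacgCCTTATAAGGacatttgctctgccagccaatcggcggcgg
Smtn: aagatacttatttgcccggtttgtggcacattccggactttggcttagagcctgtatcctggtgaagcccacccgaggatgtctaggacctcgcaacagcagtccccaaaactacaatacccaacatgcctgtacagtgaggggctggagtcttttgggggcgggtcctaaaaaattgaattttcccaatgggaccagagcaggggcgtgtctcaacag
Acta2, distal: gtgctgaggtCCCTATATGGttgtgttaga
Acta2, proximal: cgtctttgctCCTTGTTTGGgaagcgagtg

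With 1 base allowed to differ, the element was present in 21.1% of all windows and in those of 6 genes of the set, Acta2, Cald1, Cnn2, Lmod1, Myl9 and Tpm1. The MCAT element (CATTCC on either strand), which TEAD factors bind and which muscle promoters often hold, was present in 14.7% of all windows and in those of Acta2, Cald1, Lmod1, Smtn and Tpm1. No MCAT match in these genes overlapped a match to the CArG box. A match is a description of letters in the window, and binding was not measured.

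The libraries held from 30206155 to 50351082 counts each. The myoblast regulator Myod1 was present at 30.3 CPM (counts scaled to library size, with TMM factors) at 0 µM, the muscle cadherin Cdh15 at 37.3 and desmin, Des, at 259, while the satellite cell gene Pax7 was at 0.161. Defining genes of smooth muscle cells were near 0 there, with Myocd, which encodes myocardin, at 0.369, the channel subunit Kcnmb1 at 0.0504 and the pericyte gene Rgs5 at 0.0163 CPM. The summed level of 10 vascular smooth muscle and pericyte markers ranged from 391 to 470 CPM at 0 µM and from 414 to 421 CPM at 6 µM. It was carried by Notch3, Cspg4 and Pdgfrb, each above 100 CPM in mean at every dose. Summed myoblast markers ranged from 353 to 427 CPM at 0 µM and from 322 to 356 CPM at 6 µM. Most of this sum was Des, which is also among the further smooth muscle genes below. Des ranged from 228 to 278 CPM at 0 µM and from 218 to 242 at 6 µM, and Cdh15 from 32.8 to 39.5 and from 29.15 to 34.1. Myod1 ranged from 27.2 to 32.9 CPM at 0 µM and from 21.8 to 25.1 at 6 µM, and the marker Myog from 6.19 to 8.90 and from 3.78 to 4.34. Over all libraries, summed markers of fibroblasts ranged from 21.1 to 29.2 CPM, of endothelium from 4.58 to 7.17, of leukocytes from 2.34 to 4.57 and of adipocytes from 0 to 0.222, with Tcf21, Cd3e, Adipoq and Retn at 0 throughout. In bulk RNA, fewer cells of a type and less RNA per cell cannot be told apart.

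At 0 µM the 10 genes spanned several orders of magnitude. Per kilobase of the length listed for each gene, Acta2 was the most abundant at 251 ± 6.11 CPM per kb (SD, n = 4), followed by Cnn2 at 90.1 ± 3.69 and Tpm1 at 89.2 ± 1.84, whose ranges overlapped. Cald1 stood at 47.1 ± 2.22, Smtn at 25.9 ± 2.21 and Myl9 at 7.27 ± 0.192 CPM per kb, each apart from its neighbours in this order. Below them lay Lmod1 at 0.882 ± 0.184 and Cnn1 at 0.373 ± 0.127, and at the bottom Tagln at 0.0524 and Myh11 at 0.0251 CPM per kb, which overlapped. The Tagln value is uncertain, as most of its exon bases are overlapped on the other strand and the strand setting was not given. The set's summed level was 1940 ± 9.71 CPM at 0 µM, 1908 ± 9.15 at 2 µM and 1726 ± 17.9 at 6 µM (SD, n = 4). The range at 6 µM (1710 to 1745) did not reach those at 0 µM (1928 to 1950) or 2 µM (1898 to 1920). This sum does not describe each gene, as Cald1, Tpm1 and Acta2 held from 80.3% to 83.4% of the set's counts in a library. From 0 to 6 µM, mean Acta2 went from 447 to 285 CPM and Tpm1 from 578 to 544. Cald1 was at 567 CPM at both doses, and Smtn went from 113 to 129.

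**Figure D1:**
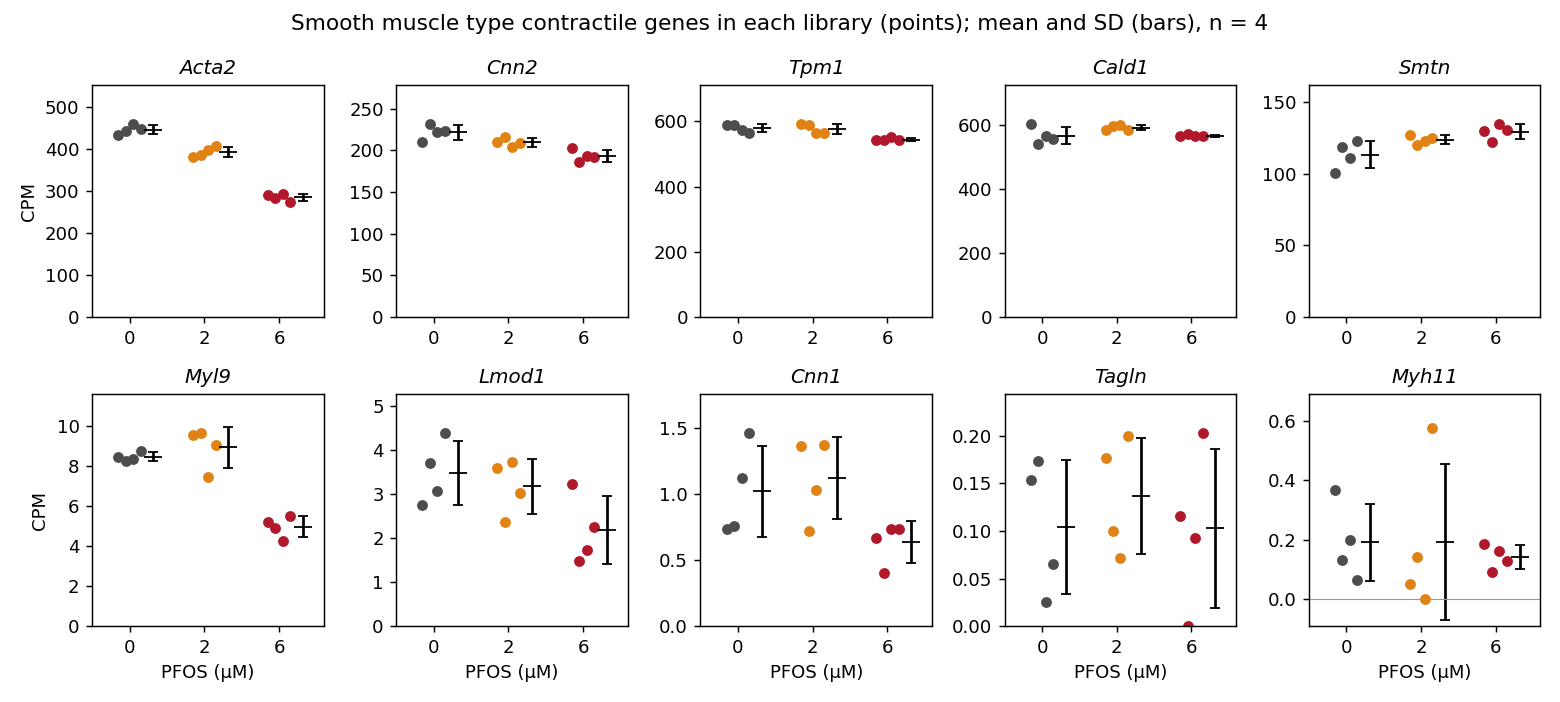
Level of each gene in CPM (vertical axes, a scale for each gene) against PFOS dose in µM. Points are libraries, and the bars beside them give the mean and SD of 4. The 4 Acta2 points at 6 µM (273 to 293 CPM) lie below all points at 2 and 0 µM, and the Myl9 points at 6 µM (4.28 to 5.49 CPM) below all others of that gene.

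Actin comes first. Acta2 (ENSMUSG00000035783, chromosome 19, 34241090 to 34255336, minus strand) encodes smooth muscle alpha-actin, the thin filament actin of smooth muscle and of myofibroblast stress fibres. It measured 435, 444, 461 and 448 CPM in the 4 libraries at 0 µM, 382, 386, 397 and 409 at 2 µM, and 290, 285, 293 and 273 at 6 µM. The 3 doses did not overlap, and the levels were ordered by dose. Its log2 fold change was -0.18 (SE 0.04) at 2 against 0 µM, or 1.14-fold lower. At 6 against 0 µM it was -0.65 (SE 0.04), or 1.57-fold lower, and at 6 against 2 µM -0.46 (SE 0.04), or 1.38-fold lower. The 3 comparisons share libraries and are not independent of each other. Across the 21 alternative settings tried, the estimate at 6 against 0 µM stayed between -0.67 and -0.63.

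Myl9 (ENSMUSG00000067818, chromosome 2, 156775420 to 156781658, plus strand), the regulatory light chain whose phosphorylation triggers smooth muscle contraction, was lower at 6 µM than at either other dose. It measured 8.42, 8.25, 8.35 and 8.76 CPM at 0 µM, 9.56, 9.66, 7.43 and 9.04 at 2 µM, and 5.19, 4.90, 4.28 and 5.49 at 6 µM. All 4 libraries at 6 µM were below the lowest at either other dose, and those at 0 and 2 µM overlapped. The log2 fold change was 0.08 (SE 0.12) at 2 against 0 µM, -0.77 (SE 0.12) at 6 against 0 µM and -0.85 (SE 0.12) at 6 against 2 µM, the last being 1.80-fold lower. Myh11 (ENSMUSG00000018830, chromosome 16, 14194535 to 14291372, minus strand), the smooth muscle myosin heavy chain, had 87 counts in the 12 libraries together. Its mean was 0.191, 0.192 and 0.141 CPM at 0, 2 and 6 µM, and the library at 2 µM replicate 3 had no count, which allows up to 0.0719 CPM at 3 counts. Myh11 did not pass the filter on low counts, so no p-value is given for its dose comparisons. Of its 7644 distinct 50-base stretches, 26 (0.34%) also occur in transcripts of Myh9 or Myh10.

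The calponins bind actin and damp the myosin ATPase. Cnn2 (ENSMUSG00000004665, chromosome 10, 79988584 to 79996062, plus strand), the form made widely in non-muscle and smooth muscle cells, measured 210, 232, 221 and 223 CPM at 0 µM, 210, 216, 204 and 209 at 2 µM, and 203, 185, 193 and 191 at 6 µM. The highest library at 6 µM lay just below the lowest at 2 µM. The log2 fold change was -0.08 (SE 0.04) at 2 against 0 µM, -0.20 (SE 0.04) at 6 against 0 µM and -0.12 (SE 0.04) at 6 against 2 µM, and that at 6 against 0 µM was 1.15-fold lower. Cnn1 (ENSMUSG00000001349, chromosome 9, 22099216 to 22109630, plus strand), the smooth muscle form, had 452 counts in all, and measured 0.735, 0.758, 1.13 and 1.47 CPM at 0 µM, 1.37, 0.721, 1.03 and 1.37 at 2 µM, and 0.669, 0.406, 0.740 and 0.737 at 6 µM. Its doses overlapped throughout, with a log2 fold change of -0.67 (SE 0.38) at 6 against 0 µM. Tagln (ENSMUSG00000032085, chromosome 9, 45929619 to 45936058, minus strand), which encodes the calponin relative transgelin (SM22), had only 57 counts, and its means were 0.104, 0.137 and 0.103 CPM at 0, 2 and 6 µM. The library at 6 µM replicate 2 had no Tagln count, which allows up to 0.0677 CPM. Of the 1988 exon bases of Tagln, 1349 are overlapped on the other strand by Pcsk7 or Gm48529, and with no strand setting given their reads cannot be told apart from it. Pcsk7 measured 33.8 CPM at 0 µM, but in the count table it ends at 45929726, so it reaches only the edge of Tagln. Gm48529, at 45930112 to 45933738, measured 0.0796 CPM.

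Smtn (ENSMUSG00000020439, chromosome 11, 3517523 to 3540612, minus strand) encodes smoothelin, an actin-bound protein of contractile smooth muscle, and it was the gene of the set that was higher at 6 µM. It measured 101, 119, 111 and 123 CPM at 0 µM, 127, 120, 122 and 125 at 2 µM, and 130, 122, 135 and 131 at 6 µM. The highest library at 0 µM exceeded the lowest at 2 and at 6 µM, so the doses overlapped. The log2 fold change was 0.13 (SE 0.05) at 2 against 0 µM and 0.19 (SE 0.05) at 6 against 0 µM, the latter 1.14-fold higher. The call at 6 against 0 µM ended in 7 of 21 alternatives, among them leaving out 0 µM replicate 1 (log2 0.14), 0 µM replicate 3 (0.18), 6 µM replicate 1 (0.19), 6 µM replicate 3 (0.17) or 6 µM replicate 4 (0.19). Of its 4380 exon bases, 714 are overlapped on the other strand by Gm11946 and Gm11947, which measured 0.385 and 0 CPM at 0 µM.

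Tropomyosin and caldesmon lie along the actin filament and regulate access of myosin to it. Tpm1 (ENSMUSG00000032366, chromosome 9, 67022590 to 67049406, minus strand) measured 587, 589, 574 and 564 CPM at 0 µM, 593, 588, 564 and 565 at 2 µM, and 541, 542, 551 and 541 at 6 µM. All 4 libraries at 6 µM were below those at the other doses, by a small step: the log2 fold change at 6 against 0 µM was -0.09 (SE 0.03). Cald1 (ENSMUSG00000029761, chromosome 6, 34598500 to 34775473, plus strand) measured 604, 542, 566 and 556 CPM at 0 µM, 584, 597, 599 and 585 at 2 µM, and 565, 571, 567 and 564 at 6 µM. The libraries at 6 µM lay within the range at 0 µM and below all of those at 2 µM, with a log2 fold change of -0.06 at 6 against 2 µM. The tables count reads per gene, so smooth muscle and other splice forms of Tpm1 and Cald1 were not separated.

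Lmod1 (ENSMUSG00000048096, chromosome 1, 135324807 to 135368065, plus strand) encodes leiomodin, which nucleates actin filaments in smooth muscle. It measured 2.76, 3.70, 3.07 and 4.40 CPM at 0 µM, 3.59, 2.36, 3.74 and 3.03 at 2 µM, and 3.23, 1.49, 1.73 and 2.26 at 6 µM. Only 6 µM replicate 1 lay within the range at 0 µM. The log2 fold change at 6 against 0 µM was -0.68 (SE 0.24) and did not pass the threshold, and without 6 µM replicate 1 it was -0.93 and did.

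**Figure D2:**
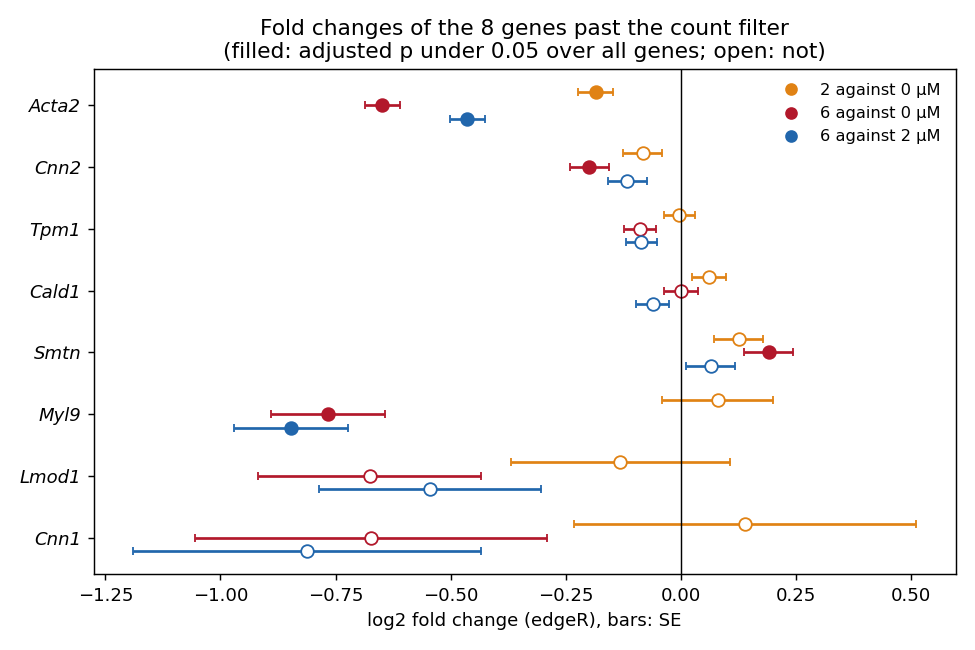
Log2 fold change (horizontal axis) of the 8 genes past the filter for 3 dose comparisons, with bars of 1 SE and filled points at an adjusted p under 0.05 by edgeR. Acta2 is filled in all 3 comparisons and Myl9 in the 2 that involve 6 µM, while the bars of Lmod1 and Cnn1 are wide.

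The threshold for a call was an adjusted p under 0.05 (edgeR, Benjamini-Hochberg over the 16038 genes tested). At 6 against 0 µM, 3 of the 8 genes were called lower (Acta2, Myl9 and Cnn2), where 3.66% of all genes were, and 1 was called higher (Smtn), where 4.58% were (8.24% in either direction). In 4 genes (Acta2, Cnn2, Myl9 and Tpm1) every library at 6 µM was below every library at 0 µM, as in 6.15% of all genes, and in none was it above, as in 6.39%. The median log2 fold change of the 8 was -0.42 and that of all genes -0.02. At 2 against 0 µM, edgeR called Acta2 lower (0.742% of all genes) and none higher (1.61%, or 2.35% in either direction), with 1 gene higher at an unadjusted p under 0.05 and 0 by DESeq2 and by limma-voom. The median was 0.03 against -0.01 over all genes, and Acta2 was the 1 gene without overlap between these doses (3.6% of all genes lower and 4.77% higher). At 6 against 2 µM, edgeR called Acta2 and Myl9 lower (0.549%) and none higher (0.561%, or 1.11% in either direction), with 0 higher at an unadjusted p under 0.05 and 0 by DESeq2 and limma-voom. Every library at 6 µM was below every library at 2 µM in 5 genes (Acta2, Cnn2, Myl9, Cald1 and Tpm1), as in 4.15% of all genes, and in none was it above, as in 4.45%. The median was -0.29.

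Relatives from the same or related protein families were listed for the genes of the set other than Cald1, and 22 of 25 such paralogs passed the filter. At 6 against 0 µM, edgeR called 5 of them lower, where 3.66% of all genes were, and 1 higher, where 4.58% were. Their median log2 fold change was -0.03. The striated actins fell: Actc1, the cardiac actin that immature muscle also makes, by 1.31 on the log2 scale (SE 0.24, adjusted p = 0.00111), or 2.49-fold, and Acta1, the skeletal actin, by 0.62 (SE 0.14, adjusted p = 0.006), or 1.54-fold. Actg2, the enteric smooth muscle actin, fell by 0.43 (SE 0.10, adjusted p = 0.0074). The cytoplasmic actins were not called in any of the 3 comparisons, and their log2 fold changes at 6 against 0 µM were -0.02 (SE 0.03) for Actb and -0.04 (SE 0.03) for Actg1. Per length, Acta2 stood at 0.427 ± 0.0121 of Actb at 0 µM, 0.391 ± 0.0151 at 2 µM and 0.277 ± 0.00528 at 6 µM (SD, n = 4). The ratio of Acta2 to Acta1, 16.9 ± 2.18 at 0 µM and 16.8 ± 3.34 at 6 µM, overlapped between the doses.

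Calponin 3, Cnn3, the most abundant calponin per length, fell by 0.17 (SE 0.04, adjusted p = 0.00535), and its ratio to Cnn2 was 2.04 ± 0.101 at 0 µM and 2.08 ± 0.0621 at 6 µM. Tagln2, the transgelin of non-muscle cells, rose by 0.23 (SE 0.04, adjusted p = 0.000975) from 390 ± 17.7 to 458 ± 15.5 CPM, while the means of Tagln lay between 0.103 and 0.137 CPM. Of the other regulatory light chains, Myl12a was at -0.01 (SE 0.04) and not called, and Myl12b at -0.77 (SE 0.24) just missed the threshold (adjusted p = 0.0514). Per length, the ratio of Myl12a to Myl9 was 6.43 ± 0.399 at 0 µM and 10.9 ± 1.28 at 6 µM, without overlap (9.46 at the lowest against 6.77 at the highest). The non-muscle heavy chains Myh9 and Myh10 (0.02 and 0.01) and the other tropomyosins Tpm2, Tpm3 and Tpm4 (-0.05, 0.08 and 0.02) were not called. Without 0 µM replicate 1 and 6 µM replicates 2 and 3, which lay farthest from their dose means, 2 paralogs were called lower, and the calls of Actg2 (log2 -0.32), Cnn3 (-0.15) and the light chain Myl6b (-0.30, from -0.46 with all libraries) were lost.

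**Figure D3:**
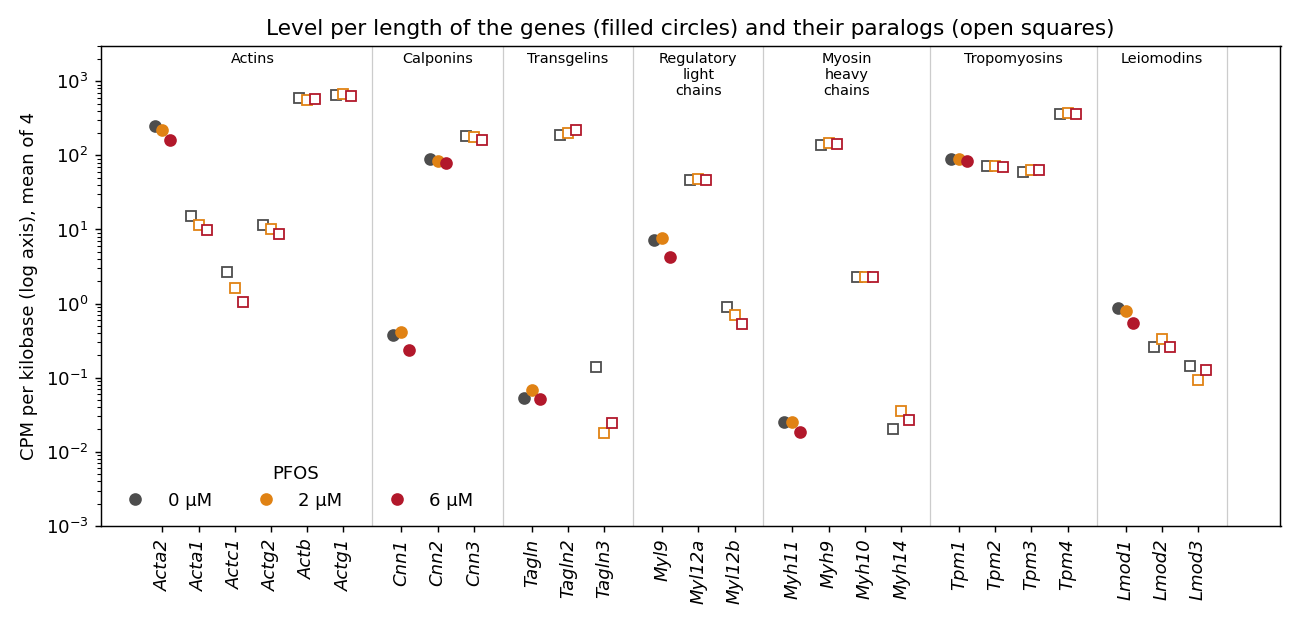
Mean level per kilobase of gene length (CPM per kb, log axis) at each dose for the genes of the set (filled circles) and their paralogs (open squares), by protein family. Acta2 at 251 CPM per kb lies between the cytoplasmic actins and the striated actins, and Tagln and Myh11 lie far below Tagln2 and Myh9. The counted level of Tagln is uncertain, as genes on the other strand overlap it and the strand setting was not given.

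**Figure D4:**
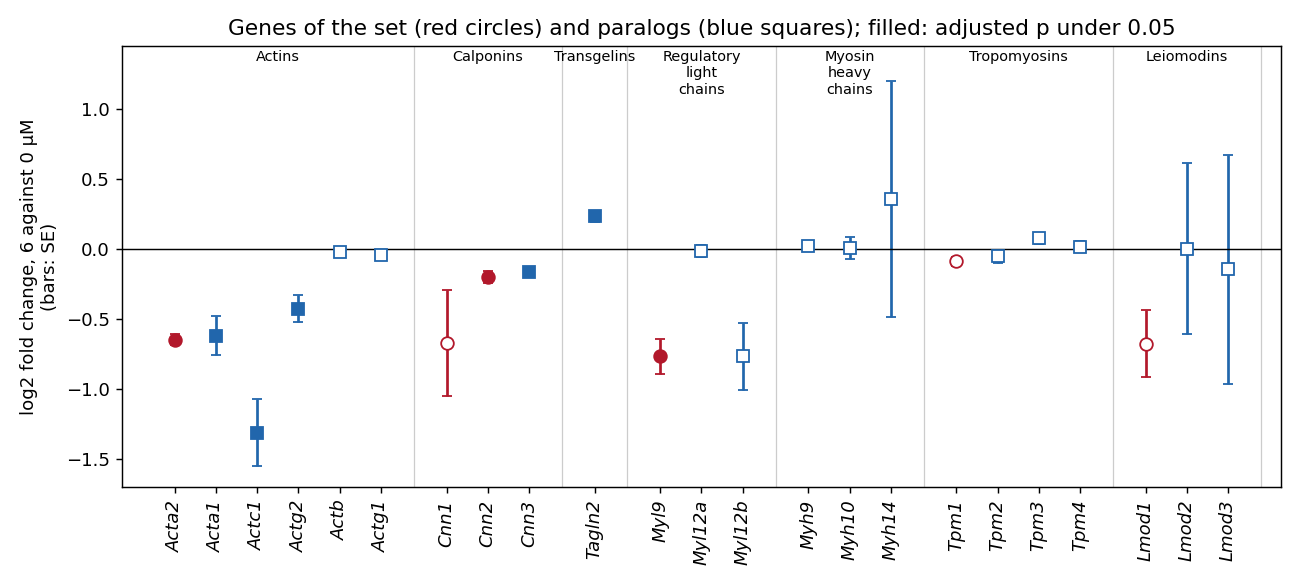
Log2 fold change at 6 against 0 µM (vertical axis, bars of 1 SE) for genes of the set (circles) and paralogs (squares) past the filter, filled at an adjusted p under 0.05. In the actin family Acta2, Acta1, Actc1 and Actg2 are filled and below 0, and Actb and Actg1 are open and near 0.

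Of 21 further smooth muscle genes, 19 passed the filter. At 6 against 0 µM edgeR called 7 lower, where 3.66% of all genes were, and 0 higher, where 4.58% were. The higher count was also 0 at an unadjusted p under 0.05, by DESeq2 and by limma-voom. Their median was -0.19. Aoc3, a vascular adhesion amine oxidase, fell from 11.9 ± 1.24 to 5.34 ± 0.883 CPM (log2 -1.15, SE 0.13, adjusted p = 3.5e-06), or 2.22-fold. Pdlim3, an actinin-binding protein of muscle Z-lines and smooth muscle, fell from 12.1 ± 1.95 to 6.28 ± 0.491 CPM (log2 -0.94, SE 0.13, adjusted p = 4.94e-05). Mylk, the kinase that phosphorylates the regulatory light chain, fell by 0.58 (SE 0.14, adjusted p = 0.01). Actg2, described among the actins, belongs here too. The count was 4 without 6 µM replicate 4. Without 0 µM replicate 1 and 6 µM replicates 2 and 3 together it was 3, and the call of Mylk (log2 -0.61) was among those lost. At 6 against 2 µM, Aoc3 alone was called lower, where 0.549% of all genes were. That call ended without those 3 libraries (log2 -0.53, from -0.72). At 2 against 0 µM, edgeR called 0 lower, where 0.742% of all genes were, and 0 higher, where 1.61% were. An unadjusted p under 0.05 gave 3 lower and 1 higher, DESeq2 3 and 1, and limma-voom 1 and 1.

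Beside these stand genes of the skeletal sarcomere, which myoblasts switch on as they differentiate. Of 25 tested, edgeR called 10 lower at 6 against 0 µM, where 3.66% of all genes were, and 0 higher, where 4.58% were. The higher count was also 0 at an unadjusted p under 0.05, by DESeq2 and by limma-voom. The median log2 fold change was -0.64. Myh1, a fast myosin heavy chain, fell by 0.74, Tnnt1, the slow troponin T, by 0.96, and Ttn, the giant elastic protein titin, by 0.64 on the log2 scale. Without 0 µM replicate 1 and 6 µM replicates 2 and 3 together, the calls of Mylpf (log2 -0.61), Tnnc1 (-0.42), Tnni1 (-0.75) and Neb (-0.98) were lost. Those of Myh1, Tnnt1, Ttn, Actc1, Acta1 and Myh3 were kept. Actc1 and Acta1 are counted in this list as well as among the paralogs. The list's median was -0.33 at 2 against 0 µM and -0.30 at 6 against 2 µM. In 10 of the 25 every library at 6 µM was below every library at 0 µM, as in Acta2 and Myl9 and in 6.15% of all genes. The part of this list in the differences of the smooth muscle type genes was not tested.

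The transcript of Srf itself was 81.8 ± 9.64 CPM at 0 µM and 74.8 ± 6.61 at 6 µM, and was not called in any comparison. The myocardin-related factors, listed in the table as Mkl1 and Mkl2, stood at 77.8 ± 8.71 and 32.1 ± 1.96 CPM at 0 µM and 81.4 ± 5.71 and 34.9 ± 1.65 at 6 µM, and neither was called. Myocd had 145 counts in all and was not called. Of 28 genes that encode SRF, its cofactors and its upstream regulators, edgeR called 0 lower at 6 against 0 µM (3.66% of all genes). An unadjusted p under 0.05 gave 1 lower, and DESeq2 and limma-voom gave 0. Called higher by edgeR were 3, where 4.58% of all genes were, and the median was 0.04. Klf4, a zinc-finger factor that opposes smooth muscle gene expression, rose by 26.7% at 2 µM (adjusted p = 0.00652) and by 20.6% at 6 µM (adjusted p = 0.0099). Without 0 µM replicate 1 and 6 µM replicates 2 and 3 together, the call of Klf4 at 6 µM ended, with a log2 fold change of 0.17 in place of 0.27. Diaph3 and Diaph1, formins that polymerise actin, rose by 0.16 (adjusted p = 0.0322) and 0.17 (adjusted p = 0.0454) on the log2 scale. The count of 3 was 1 without 0 µM replicate 2 or 3, or without 6 µM replicate 1, 2 or 4, so it rests on single libraries.

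Other SRF targets of the cytoskeleton did not share 1 direction. Of 18 tested at 6 against 0 µM, edgeR called 2 lower, where 3.66% of all genes were, and 2 higher, where 4.58% were. Their median was close to that of all genes. Thbs1, the matrix protein thrombospondin 1, fell by 0.26 (SE 0.04, adjusted p = 8.42e-05) and Fhl2, a LIM-domain cofactor, by 0.20 (adjusted p = 0.0248). Tln1, which encodes talin, rose by 0.21 (SE 0.04, adjusted p = 0.00234), and Flna, which encodes the actin cross-linker filamin A, by 0.11 (adjusted p = 0.0437). Each count was 1 when single libraries were left out: the lower count without 0 µM replicate 2 or 3 or 6 µM replicate 1 or 4, and the higher count without 0 µM replicate 2 or 3, 2 µM replicate 2, or 6 µM replicate 1, 3 or 4. At 2 against 0 µM, edgeR called 3 higher, where 1.61% of all genes were. Among these, Cyr61 rose by 34.3% (adjusted p = 2.38e-05) and Ctgf by 37.4% (adjusted p = 0.0106). Both encode matrix-associated proteins that SRF and YAP are known to drive. Without 2 µM replicate 4 the count was 1, as the calls of Ctgf (log2 0.42) and Tln1 (0.14) ended, and that of Tln1 ended in 8 of 21 alternatives. With all libraries in the edgeR fit, Cyr61 was lower at 6 against 2 µM (log2 -0.35, SE 0.05, adjusted p = 0.000188). Its level at 6 µM (371 CPM) was not called against that at 0 µM (352 CPM).

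Across the 12 libraries, the genes outside the set whose log2 CPM followed that of Acta2 most closely, among 9768 compared, were C1qtnf3 (Pearson r 0.986), H19 (0.977), Tgfb3 (0.974), Car8 (0.973) and Acadsb (0.963). The 12 points fall into 3 dose groups and share library size scaling, so r mostly reflects the dose means and is given as a description. C1qtnf3, a secreted C1q-domain protein, measured 61.5 ± 1.84, 53.2 ± 1.13 and 40.8 ± 1.17 CPM at 0, 2 and 6 µM. H19, an imprinted long non-coding RNA abundant in muscle precursors, measured 913 ± 43.7, 799 ± 9.996 and 614 ± 12.4 CPM. Tgfb3, a TGF-beta ligand, measured 103 ± 4.97, 90.4 ± 1.13 and 73.5 ± 3.88 CPM.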

How the data were processed

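Reads were aligned by the authors with HISAT2 to a build named as GRCm39, per the submitters' processing notes, and the authors deposited 1 table of whole-number counts per gene, not normalized. The sources used here do not give versions, the counting program or the strand setting. Gene positions in the table equal those of GENCODE M21 on GRCm38 for 53585 of 54495 shared genes (98.3%), so positions are those of the table, named as GRCm38.

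The test was edgeR's quasi-likelihood test (version 4.0.16, R 4.3.3) after TMM scaling and filterByExpr. A single model held 1 mean for each dose and all 12 libraries (9 residual degrees of freedom), adjusted by Benjamini-Hochberg over 16038 genes (38494 left out). SE is the size of the log2 fold change over root F. CPM and CPM per kb use TMM-scaled sizes and the table's gene length. DESeq2 1.42.0, limma-voom 3.58.1, other scalings and filters, a replicate block and leaving out libraries were alternatives. The procedure was tested on simulated data for 6 against 0 µM (15670 genes), recovering 59.7% of 1.25-fold, 76.1% of 1.5-fold and 87.9% of 2-fold changes. Changes were put only into genes with a mean count above 50, with the spread fitted to these libraries. The shares therefore do not cover genes with lower counts, such as Cnn1, and give no rate of false calls.

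Totals of 30206155 to 50351082 counts a library limit Tagln, Myh11 and Cnn1, and the unknown strand setting also limits Tagln. Limits from a count of 0 cover counting error only. No pair of libraries was identical. Deviations from the dose mean were correlated between same-numbered libraries of different doses, and none of 12 correlations exceeded 0.1. The common biological coefficient of variation was 10.8%.

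The set and all lists were chosen with earlier results of these data known. Named were all 10 genes, Srf and its cofactors, fixed paralogs, up to 4 called genes of each other list with the smallest adjusted p at 6 against 0 µM and 2 in other comparisons, the 5 genes most like Acta2 with mean log2 CPM no lower than 3, and cell type markers. Other genes named as called, such as all called members of a list, were added after their values were seen. Promoter sequences are RefSeq's. The values of 1 gene of the TGF-beta list are not reported here.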

Additional observations from a re-analysis of the deposited data

Results flagged for a closer look

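Tpm1 at 6 µM was singled out because 1 library stood apart from the other 3. Replicate 3 measured 550.6 CPM, and the others lay between 541.1 and 542.0 CPM, so the gap took 0.907 of the whole range, above Dixon's critical value for 4 samples. The group is narrow, and all 4 libraries remained below those at 0 and 2 µM. Of 30 groups of 4 libraries tested (10 genes at 3 doses), this was the 1 that passed, and chance alone passes about 5%.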

How the results depend on the processing

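No called result reversed direction under any alternative run. Of 144 estimates of named genes, 18 differed in sign between alternatives, and 0 of these were called, among them Cald1 at 6 against 0 µM (-0.02 to 0.03) and Tpm1 at 2 against 0 µM (-0.02 to 0.01). The calls of Acta2 (3 comparisons), Myl9 (2) and Cnn2 (6 against 0 µM) held in all 21 alternatives. At 6 against 0 µM, with the counts reported above in brackets, fitting only the 2 doses gave 0 genes of the set higher (1) and, of the cytoskeletal SRF targets, 1 lower (2) and 1 higher (2). Without 0 µM replicate 1 and 6 µM replicates 2 and 3 together there were 0 genes of the set higher (1), 3 other smooth muscle genes lower (7), 2 paralogs lower (5), 1 SRF regulator higher (3), and 1 cytoskeletal target lower (2) and 1 higher (2). The sarcomere calls of Mylpf, Tnnc1, Tnni1 and Neb were also lost without those libraries. Upper-quartile scaling gave 1 SRF regulator higher (3) and 1 cytoskeletal target higher (2). No filter on low counts, or a mean count of at least 50, likewise gave 1 cytoskeletal target higher (2). Cnn1 was not tested under that mean count.

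Leaving out 1 library at a time, counts at 6 against 0 µM ranged over 3 to 4 lower and 0 to 1 higher in the set, 4 to 7 lower among other smooth muscle genes, 4 to 5 lower among paralogs, 1 to 3 higher among SRF regulators, and 1 to 2 lower and 1 to 2 higher among cytoskeletal targets. Sarcomere genes gave 8 to 11 lower, and TGF-beta genes 5 to 6 lower and 2 to 3 higher. The cause was not tested.

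With the replicate number as a block, the set's counts were 3 lower and 1 higher at 6 against 0 µM, other smooth muscle genes 7 lower, paralogs 4 lower and SRF regulators 2 higher. Correlations of same-numbered libraries ran from -0.028 to 0.0375, and 5 of 12 libraries correlated best with their own number. The labels do not say whether same-numbered libraries shared a culture or a batch, and these values do not settle it.

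Searching only the bases before the start, 1.47% of windows held a CArG box, with Myl9 and Cnn2 again. Depth limits Myh11 and Cnn1, and both depth and the unknown strand setting limit Tagln. Strand, splice form and the separateness of cultures were not given.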

Other observations

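Transcripts of 20 genes of the TGF-beta pathway, which drives Acta2 and other contractile genes in fibroblasts, were tested. They do not measure the activity of the pathway, and a link to the set's differences was not tested. At 6 against 0 µM edgeR called 5 lower (Postn, Tgfb3, Col3a1, Col1a2 and Tgfb2), where 3.66% of all genes were. It called 2 higher, among them Ltbp1, where 4.58% of all genes were, and the median log2 fold change was -0.04. Postn, the matrix protein periostin, fell by 0.50 (SE 0.05, adjusted p = 1.6e-06), and Tgfb3, a ligand, fell by 0.48 (SE 0.05, adjusted p = 1.62e-06). Col3a1, a fibrillar collagen chain, fell by 0.27 (SE 0.04, adjusted p = 6.55e-05). Ltbp1, which binds latent TGF-beta in the matrix, rose by 16.1% (adjusted p = 0.000908). In Postn, Tgfb3, Col3a1 and Ltbp1 all 4 libraries at 6 µM lay outside the range at 0 µM. Of all genes, 6.15% lay wholly below it and 6.39% wholly above. At 2 against 0 µM, edgeR called 2 lower (0.742% of all genes) and 3 higher (1.61%). The 2 lower, Postn and Col3a1, lost their calls in 5 and 13 of 21 alternatives. At 6 against 2 µM it called 4 lower (0.549%) and 1 higher (0.561%).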
